A study of Homo sapiens with 8 samples.

Results

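The comparison asked which genes differed when human intestinal epithelial cells (hIECs) that had seen no cytokine were exposed to PM10, airborne particulate matter of the coarse and fine size classes. It rests on 4 of the 8 RNA-seq libraries of the study, 2 of untreated normal hIECs and 2 of normal hIECs with PM10, and no inflamed library entered any value. All 4 libraries came from H9, a single human embryonic stem cell line, differentiated as a flat 2D culture, so no second genetic background was measured. Both groups were matured in the same hIEC medium 2, which held EGF, the WNT inhibitor Wnt-C59 and valproic acid, a histone deacetylase inhibitor, and received no inflammatory cytokine. Per the methods PM10 was given from day 7 to day 14 of that medium, a span of 7 days, whereas the labels of every library name a treatment of 10 days. The dose chosen for the 2D cultures was 100 µg/ml, and none is named for these libraries separately. The labels do not say whether the libraries of a group came from separate cultures, so every p-value measures only the spread between these samples, which may be technical. Values are FPKM, mapped fragments scaled by transcript length and library size, and differences are PM10 minus normal on the log2(FPKM + 1) scale, which understates the change of genes with low values. A gene was tested when it reached 1 FPKM in at least 2 of the 4 libraries, which held for 13588 of 60558 genes, and it was called when limma, a linear model fitted over all tested genes, gave an adjusted p under 0.05. A gene under 1 FPKM in both libraries of a group was tested only through the other group, so the filter in part selected its difference.

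Airborne particles carry metals, endotoxin and polycyclic aromatic hydrocarbons. Such hydrocarbons bind the aryl hydrocarbon receptor (AhR), which moves to the nucleus, pairs with ARNT and switches on detoxifying enzymes such as CYP1A1 and CYP1B1 and its own repressor AHRR. Oxidants and electrophiles act on KEAP1 and so release NRF2, the product of NFE2L2, which raises genes of glutathione and quinone metabolism, heme oxygenase and the autophagy receptor SQSTM1. In the intestine both pathways are known for their part in the defense of the epithelium against swallowed toxins.

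The epithelial label was checked against cell type markers in these 4 libraries. Of 27 markers of intestinal epithelium, 6 reached the minimum for testing, and 17 were listed at 0 in all 4 libraries, among them the adhesion protein gene CDH1, the intestinal master regulator CDX2, the brush border gene VIL1 and the transcription factor gene HNF4A. EPCAM, a surface marker of most epithelia, was at 0.622 and 0.614 FPKM in the normal libraries and at 0.553 and 0.411 FPKM with PM10. The keratin genes KRT8 and KRT18 were abundant, with KRT8 at 373 and 383 FPKM in the normal libraries and at 361 and 382 FPKM with PM10. Markers of mesenchyme were far more complete, with 16 of 18 tested. Their summed level was 4628 and 4634 FPKM in the normal libraries and 4225 and 4220 FPKM with PM10. VIM, an intermediate filament gene of mesenchymal cells, was at 923, 904, 733 and 718 FPKM in normal library 1, normal library 2, PM10 library 1 and PM10 library 2, which is the order of the values in all that follows. Neuronal and glial markers were tested for 10 of 14 genes, with summed levels of 452 and 422.7 FPKM in the normal libraries and 481.7 and 483.7 FPKM with PM10, while ELAVL3, ELAVL4 and SOX10 were listed at 0 throughout. Endothelial markers were tested for 3 of 10 genes and summed to between 50.42 and 62.71 FPKM, with PECAM1, CDH5, KDR, VWF and CLDN5 listed at 0. No marker of blood and immune cells reached the minimum, and the summed level of those 11 genes lay between 0.253 and 1.027 FPKM. Pluripotency markers were tested for 2 of 10 genes, with POU5F1 and NANOG listed at 0. The defining markers of intestinal epithelium were thus largely missing, and the cells are called hIECs only as their label. The paper, by contrast, reports markers of enterocytes, goblet cells and Paneth cells in its hIECs, by PCR and by staining. The cause of this difference was not tested. In bulk libraries such as these, fewer cells of a type and less RNA of a gene per cell cannot be told apart.

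**Figure D1:**
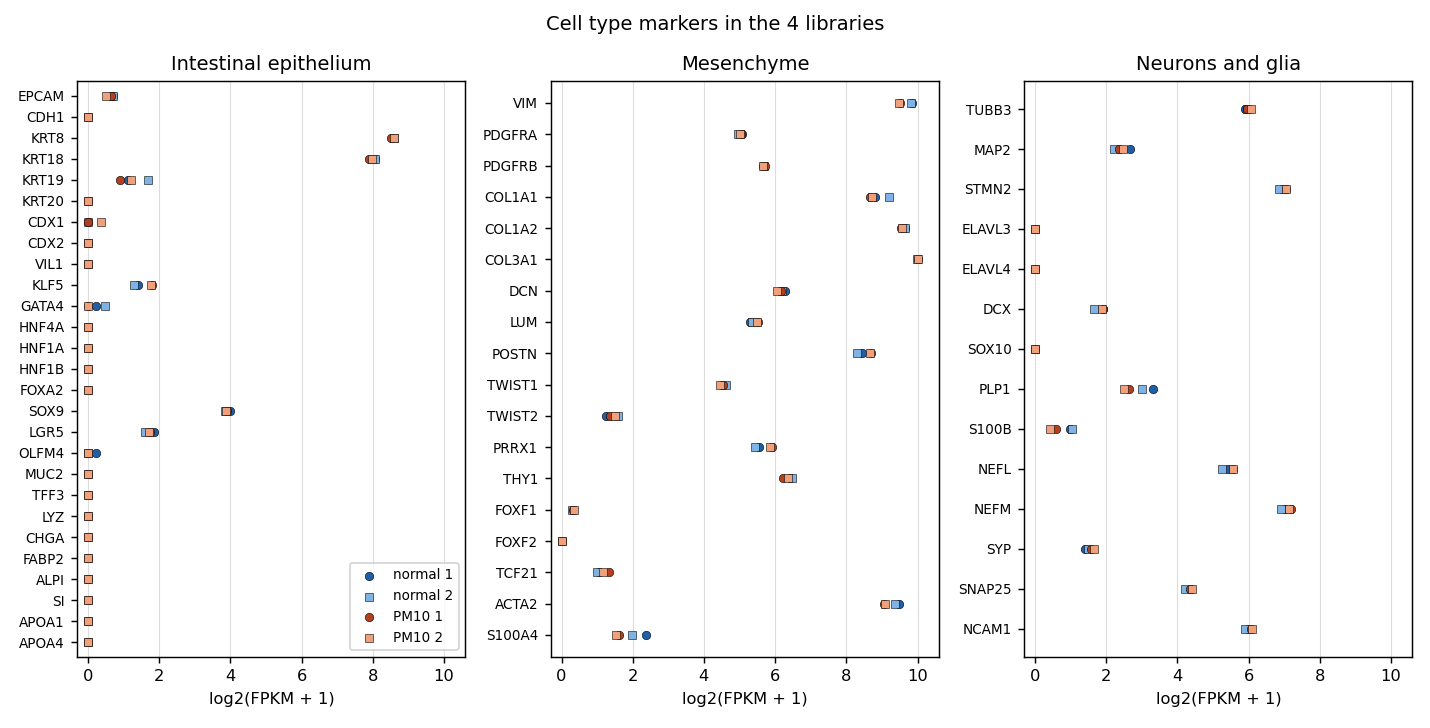
Level of each marker of intestinal epithelium, mesenchyme, and neurons and glia as log2(FPKM + 1) in the 4 libraries, with one symbol per library (blue normal, orange PM10). Of the 27 epithelial markers 17 sit at 0 in every library, whereas 16 of 18 mesenchymal markers reached the minimum of 1 FPKM in at least 2 libraries.

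The promoters of AhR genes are shown because the gene with the largest rise belonged to that pathway. The core of the site that AhR and ARNT bind reads GCGTG on one strand and CACGC on the other, and either is set in capitals below. The windows are the 250 bases before the RefSeq start of each gene on GRCh38.p14, printed 5′ to 3′ on the gene's own strand, and positions count back from the start. CYP1A1 (chr15:74725529-74725778, minus strand) is the classical AhR target, TIPARP (chr3:156674340-156674589, plus strand) encodes a mono-ADP-ribosyltransferase that represses AhR, and NQO1 (chr16:69726561-69726810, minus strand) encodes a quinone reductase that AhR and NRF2 both regulate. CYP1B1 and HMOX1 are named only.
CYP1A1: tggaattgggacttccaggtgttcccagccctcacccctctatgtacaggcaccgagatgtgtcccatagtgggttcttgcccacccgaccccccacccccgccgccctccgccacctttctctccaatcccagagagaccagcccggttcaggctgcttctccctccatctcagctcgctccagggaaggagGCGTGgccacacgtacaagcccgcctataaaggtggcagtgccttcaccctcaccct
TIPARP: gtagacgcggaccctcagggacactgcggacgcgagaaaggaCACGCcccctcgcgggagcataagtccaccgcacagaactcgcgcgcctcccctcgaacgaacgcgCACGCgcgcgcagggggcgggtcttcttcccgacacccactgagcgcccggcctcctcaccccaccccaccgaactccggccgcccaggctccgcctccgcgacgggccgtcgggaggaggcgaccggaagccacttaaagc
NQO1: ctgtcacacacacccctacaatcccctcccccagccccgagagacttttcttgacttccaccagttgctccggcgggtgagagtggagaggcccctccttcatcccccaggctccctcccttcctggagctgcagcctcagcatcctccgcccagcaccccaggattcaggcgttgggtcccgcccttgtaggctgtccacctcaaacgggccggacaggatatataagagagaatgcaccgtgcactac
The CYP1A1 window held 1 match, at position -57, TIPARP held 2, at -208 and -142, and NQO1 held none. AHRR held 1 match at -30, NFE2L2 held 1 at -135, and AHR and SQSTM1 held none. Of the 22 listed AhR genes, 18 had a promoter in the RefSeq table, and 9 of these 18 held the core at least once. Of the 8 promoters of tested AhR genes, 3 held it. The first share lay above that of all promoters and the second below that of all tested genes, both given next. Neither difference was tested. The core stood at least once, on either strand, in 31.9% of all 27305 promoters of the table and in 46.0% of those of tested genes. The share was 41.5% for the genes called higher with PM10 (34 of 82) and 35.2% for those called lower (32 of 91), so both lay below the share of all tested genes. A match of 5 letters is a description of the window, not a bound site.

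limma called 239 of the 13588 genes (1.76%), of which 114 were higher with PM10 (0.839% of all tested genes) and 125 were lower (0.920%). A further measure was a difference of at least 1 on the log2 scale, that is 2-fold, which 76 genes passed (0.559%), 26 higher and 50 lower, and 46 genes were both called and past 2-fold. The typical called gene changed modestly, with a median size of 0.69 and a smallest size of 0.38 on the log2(FPKM + 1) scale. Both PM10 libraries lay outside the range of both normal libraries, here called no overlap, for 7770 genes (57.2%), 5171 of them higher (38.1%) and 2599 lower (19.1%). With 2 libraries against 2 an exact permutation test cannot go below p = 0.333, so no single gene could be called by it. The median difference over all tested genes was 0.062. At an unadjusted p under 0.05 by limma, 2036 of the 13588 genes were higher and 1178 lower. The split of the calls depended on the scaling between libraries. It was 47.7% higher as deposited, 31.9% after median centring (102 of 320 calls), 40.3% after quantile normalization and 57.7% after rescaling without the mitochondrial genes (158 of 274 calls).

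The normal libraries differed from each other by more than the PM10 libraries did. The median size of the difference between the 2 normal libraries was 0.121 on the log2 scale, against 0.0743 between the 2 PM10 libraries, and the normal libraries were the wider in 62.9% of genes. For 6309 genes (46.4%) the normal libraries differed from each other by at least as much as the group means did. This held for none of the 239 called genes, for which the normal difference was at most 0.433 of the group difference, and for 10 of the 76 genes past 2-fold. limma sets each difference against the spread within groups, so the result for called genes follows in part from how they were called. Leaving out normal library 1 gave 397 calls, leaving out normal library 2 gave 77, and leaving out PM10 library 1 or PM10 library 2 gave 82 or 95. Of the 239 called genes, 37 were called in each of these 4 fits and 68 in none, and of the 46 called members of the gene lists below 8 were called in each and 14 in none. Where a called gene below is neither said to have been called in each fit nor among the 30 with the smallest p, its call was lost without at least 1 library. Normal library 2 held 24.2% of its FPKM in genes of mitochondrial DNA, against 17% in normal library 1 and 20.4% and 20.2% with PM10. Its share of ribosomal and 7SL RNA genes was 0.0831%, against 0.0422% in normal library 1 and 0.0212% and 0.0216% with PM10. How far these shares bear on single genes was not tested.

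**Figure D2:**
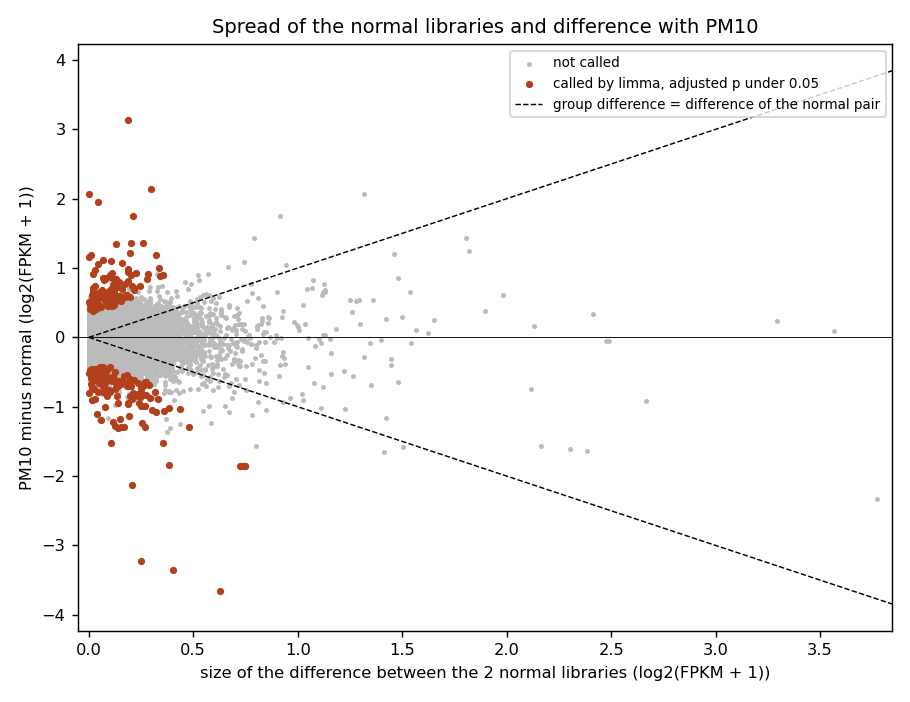
Each point is one of the 13588 tested genes, with the size of the difference between the 2 normal libraries on the x axis and PM10 minus normal on the y axis, both as log2(FPKM + 1). The 239 called genes (red) all lie outside the dashed lines where the group difference equals that of the normal libraries, whereas 6309 genes lie on or between them. The place of the called genes follows in part from how they were called.

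The gene with the largest rise was CYP1B1 (ENSG00000138061, chr2:38066973-38109902, minus strand), a cytochrome P450 that oxidizes aromatic hydrocarbons and estrogens. It was at 6.91 and 5.95 FPKM in the normal libraries and at 65.7 and 62.8 FPKM with PM10. The groups lay far apart, and the mean FPKM was 9.99 times higher with PM10. The difference was 3.14 ± 0.087 (SE, n = 2 per group, limma adjusted p = 0.000406), while the normal libraries differed by only 0.19. Its exons overlap those of RMDN2 and of antisense transcripts in these libraries without strand information, but RMDN2 was at 2.10, 2.69, 4.80 and 2.76 FPKM, and CYP1B1-AS1 was at 0.448, 0, 0.783 and 1.26 FPKM. CYP1B1 was called in each of the 4 fits that left out a library, with adjusted p between 7.27e-05 and 0.0138 over all alternatives.

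Among the 22 listed AhR genes, 10 were tested and 2 were called, both higher, beside 0.839% of all genes. No overlap upward held for 6 and downward for 4 of the 10, beside 38.1% and 19.1% of all genes, and their median difference was 0.166, beside 0.062 for all genes. The second called gene was NQO1, at 7.62, 7.96, 13.2 and 11.5 FPKM, with no overlap of the groups. Its difference was 0.60 ± 0.091 (SE, n = 2 per group, limma adjusted p = 0.0423). The normal libraries differed by 0.055 here, the PM10 libraries by 0.19, and NQO1 was called in none of the fits that left out a library, nor after median centring or quantile normalization (adjusted p between 0.0312 and 0.188 over all alternatives). TIPARP was at 3.7, 2.71, 5.15 and 5.13 FPKM. Its PM10 libraries were both higher, but the normal libraries differed by 0.34 against a group difference of 0.55, and it was not called (limma adjusted p = 0.0936). Without normal library 1 its adjusted p was 0.0444, within a range of 0.0444 to 0.283 over the alternatives.

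The receptor gene AHR itself was at 3.38, 2.75, 2.59 and 2.15 FPKM, a difference of -0.27 that was not called. Its partner ARNT was at 8.21, 8.02, 9.75 and 9.04 FPKM, also not called. CYP1A1 was listed at 0 in 3 libraries and at 0.241 FPKM in PM10 library 2, and CYP1A2 was listed at 0 in all 4. AHRR appears under 2 identifiers, at 0.296, 0.354, 0.906 and 1.11 FPKM under ENSG00000286169 and at 0, 0, 0.237 and 0 FPKM under ENSG00000063438, and neither reached the minimum for testing. The rise of CYP1B1 therefore stood beside levels of CYP1A1 at or near 0 in the same libraries.

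Of 34 listed NRF2 antioxidant genes 29 were tested, and 3 were called, all higher (0.839% of all genes were). SQSTM1 (ENSG00000161011, chr5:179806398-179838078, plus strand), the selective autophagy receptor p62 that also holds KEAP1, was at 51.2, 52.0, 99.1 and 97.8 FPKM. The 2 normal libraries were nearly equal and the PM10 libraries both close to 100 FPKM. Its difference was 0.92 ± 0.061 (SE, n = 2 per group, limma adjusted p = 0.00407), and it was called in each fit that left out a library. SQSTM1 overlaps MGAT4B and MRNIP, whose values were 35.3, 35.0, 40.1 and 38.3 FPKM and 10.0, 10.4, 13.9 and 13.3 FPKM. HMOX1, heme oxygenase 1, was at 6.90, 6.02, 10.5 and 9.86 FPKM, a difference of 0.59 ± 0.092 (SE, limma adjusted p = 0.0445). It was called in 1 of the 4 fits that left out a library, the one without normal library 1 (adjusted p = 0.0460 there, 0.10 without normal library 2, and 0.0260 to 0.190 over all alternatives). NQO1, described above, was the third.

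The other NRF2 genes were not called. FTL, the ferritin light chain gene, was at 938, 941, 1197 and 1246 FPKM with limma adjusted p = 0.0572, and AKR1C2, an aldo-keto reductase, was at 2.63, 2.17, 3.59 and 3.76 FPKM (adjusted p = 0.0924). TXNRD1, thioredoxin reductase, was at 16.8, 15.5, 21.1 and 20.4 FPKM. GCLM and GCLC, which make up the first enzyme of glutathione synthesis, differed by 0.14 and 0.22. NFE2L2 was at 38.9, 32.2, 47.5 and 45.4 FPKM, with a normal difference of 0.26 against a group difference of 0.38 (limma adjusted p = 0.115). Over the whole list the median was 0.138, beside 0.062 for all genes. No overlap upward held for 15 of 29 members and downward for 1, beside 38.1% and 19.1% of all genes, and for 12 of 29 the normal libraries differed by as much as the groups. Superoxide and peroxide removal genes had 0 calls by limma among 16 tested. At an unadjusted p under 0.05, 2 were higher and 2 lower, beside 2036 and 1178 of all 13588 genes.

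**Figure D3:**
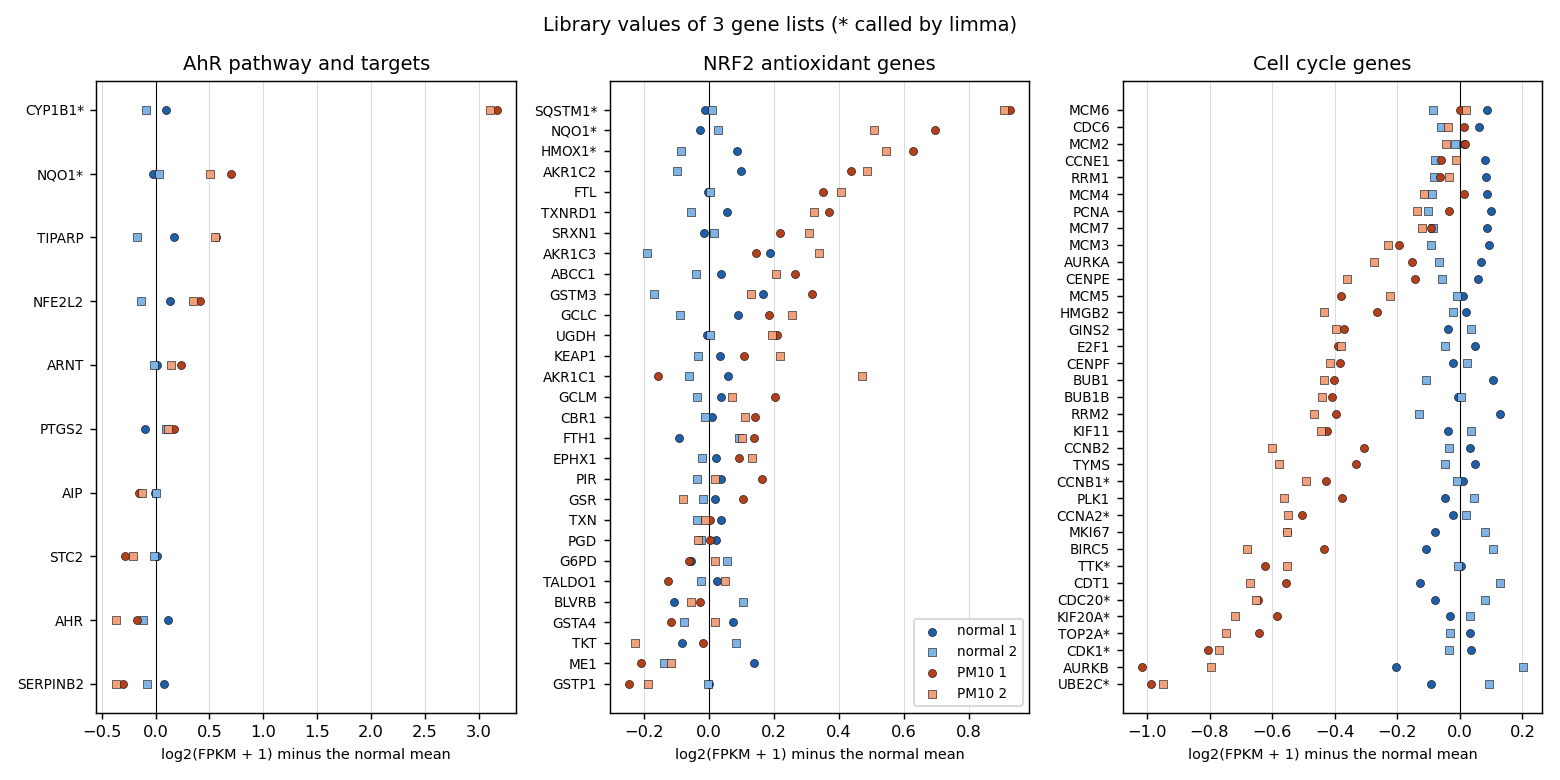
Library values of the tested AhR, NRF2 and cell cycle genes as log2(FPKM + 1) minus the mean of the normal libraries, one symbol per library, with called genes starred. CYP1B1 stands at 3.14 above the normal mean, 3 NRF2 genes are starred, and 28 of 35 cell cycle genes have both PM10 libraries below both normal libraries.

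The cell cycle genes moved the other way. Of 36 listed 35 were tested, 8 were called lower and none higher, beside 0.920% of all genes called lower. No overlap downward held for 28 of 35 and upward for none, beside 19.1% of all genes downward, and the median difference was -0.424. UBE2C, a ubiquitin conjugating enzyme of mitotic exit, was at 32.6, 37.2, 17.1 and 17.6 FPKM, and the mean FPKM with PM10 was 0.496 of the normal mean. It fell by 0.97 ± 0.085 (SE, n = 2 per group, limma adjusted p = 0.0137) and was called in each fit that left out a library. CDK1, the kinase that drives entry into mitosis, was at 18.8, 17.9, 10.1 and 10.4 FPKM (limma adjusted p = 0.0143). TOP2A, topoisomerase II alpha, was at 10.3, 9.79, 6.08 and 5.58 FPKM (adjusted p = 0.0264). CDC20, KIF20A, CCNA2, CCNB1 and TTK, all acting in mitosis or its checkpoint, fell by 0.65, 0.65, 0.53, 0.46 and 0.59.

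Among the cell cycle genes not called, AURKB, an Aurora kinase of chromosome segregation, was at 13.4, 18.1, 7.22 and 8.58 FPKM with a difference of -0.91. It was not called (limma adjusted p = 0.0517), and its normal libraries differed by 0.41. MKI67, the usual proliferation marker, was at 2.53, 2.94, 1.54 and 1.54 FPKM. MCM2 and PCNA, which act at the replication fork, were at 6.54, 6.4, 6.56 and 6.24 FPKM and at 55.8, 48.4, 50.7 and 47.2 FPKM, with overlapping groups for both. CDT1 and TYMS, which act in replication licensing and thymidylate synthesis, differed by -0.61 and -0.46, and AURKA and CENPE, which act in mitosis, by -0.21 and -0.25. The called count of the list was 5, 2, 1 and 2 when normal library 1, normal library 2, PM10 library 1 and PM10 library 2 were left out, and it was 2 without the filter on low values. The median stayed between -0.489 and -0.384 under every alternative. None of 25 p53 targets was called by limma, and their median was 0.192, beside 0.062 for all genes. At an unadjusted p under 0.05, 10 were higher and 1 lower, beside 2036 and 1178 of all 13588 genes. CDKN1A, the p21 inhibitor of cyclin dependent kinases, was at 76.6, 74.7, 91.4 and 91.3 FPKM. BMF, a BH3 protein that promotes apoptosis, was the 1 called gene of 26 apoptosis regulators, beside 0.839% of all genes called higher. BMF was at 14.5, 12.6, 27.4 and 28.1 FPKM and rose by 0.99 ± 0.086 (SE, limma adjusted p = 0.0137). It was called in each fit that left out a library.

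Several secreted proteins and proteins of the cell surface were among the 30 called genes with the smallest p, of which 27 were called in each fit that left out a library. EGFL6 (ENSG00000198759, chrX:13569601-13633575, plus strand), a secreted protein with EGF repeats, was at 0.820, 0.878, 6.08 and 6.20 FPKM. The normal libraries lay under 1 FPKM and both PM10 libraries above 6, a ratio of 7.23 and a difference of 1.95 ± 0.091 (SE, n = 2 per group, limma adjusted p = 0.00229). EGFL6, and HAPLN4 below, thus reached the minimum for testing only through their PM10 libraries. ADAM12, a membrane metalloprotease, was at 17.2, 17.4, 40.8 and 40.2 FPKM (difference 1.18, adjusted p = 0.00354). CHRDL1, an extracellular antagonist of bone morphogenetic proteins, was at 4.26, 4.75, 13.2 and 12.7 FPKM (difference 1.34, adjusted p = 0.00407). CEMIP, which takes part in the breakdown of hyaluronan, was at 10.3, 9.12, 21.5 and 21.5 FPKM. PMEL, the fibril protein of melanosomes, was at 16.5, 14.2, 39.8 and 42.2 FPKM, and its neighbor CDK2, with which it overlaps, was at 14.1, 12.4, 15.7 and 14 FPKM. HAPLN4, a link protein of hyaluronan matrix, was at 0.230, 0, 4.49 and 3.36 FPKM, and its call was lost without normal library 2 (adjusted p = 0.0531, range 0.00214 to 0.0531). TFPI2, a secreted inhibitor of serine proteases that was called but not among these 30, was at 6.56, 5.31, 18.4 and 15.2 FPKM (difference 1.36, limma adjusted p = 0.0143). Its call was likewise lost without normal library 2, with an adjusted p of 0.0670 (range 0.00214 to 0.0670). FGFBP3, a carrier of fibroblast growth factors, HS6ST2, a heparan sulfate sulfotransferase, MYLIP, a ubiquitin ligase of the LDL receptor, and C3orf80 rose by 0.85 to 0.92. CMSS1 was at 3.79, 3.93, 8.46 and 9.79 FPKM and was not called without normal library 2 (adjusted p = 0.0646, range 0.00665 to 0.0646).

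The largest called fall of a gene measured above 0 in every library was that of CRYAB (ENSG00000109846, chr11:111908564-111923722, minus strand), the small heat shock protein alpha B crystallin. It was at 5.72, 4.81, 0.376 and 0.474 FPKM and fell by 2.13 ± 0.12 (SE, n = 2 per group, limma adjusted p = 0.00354), with a normal difference of 0.21. Of the 16 tested heat shock genes it was the only one called, beside 0.920% of all genes called lower. CRYAB reached the minimum for testing only through its normal libraries. With at least 1 FPKM in all 4 libraries required, the list held no call. No overlap upward held for 12 of the 16, beside 38.1% of all genes, and the list median was 0.187. CRYAB thus went against the direction of most of its list. IGFBP7 (ENSG00000163453, chr4:57030773-57110385, minus strand), a secreted binding protein of insulin-like growth factors, was at 580, 486, 231 and 219 FPKM (difference -1.23, adjusted p = 0.00938). SULT1E1, the estrogen sulfotransferase, was at 22, 21.0, 8.93 and 8.76 FPKM (difference -1.19, adjusted p = 0.00407). CRYAB, IGFBP7 and SULT1E1 were called in each fit that left out a library. SNCG, gamma synuclein, was at 25.6, 25.0, 12.9 and 13.4 FPKM, and CDCA3, a trigger of mitotic entry, at 7.08, 7.16, 3.40 and 3.28 FPKM. CDCA3 was not called without normal library 2 (adjusted p = 0.0551, range 0.00978 to 0.0551). The remaining gene of low annotation, the transcript AC083967.1, was at 103, 109, 53 and 51.1 FPKM.

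**Figure D4:**
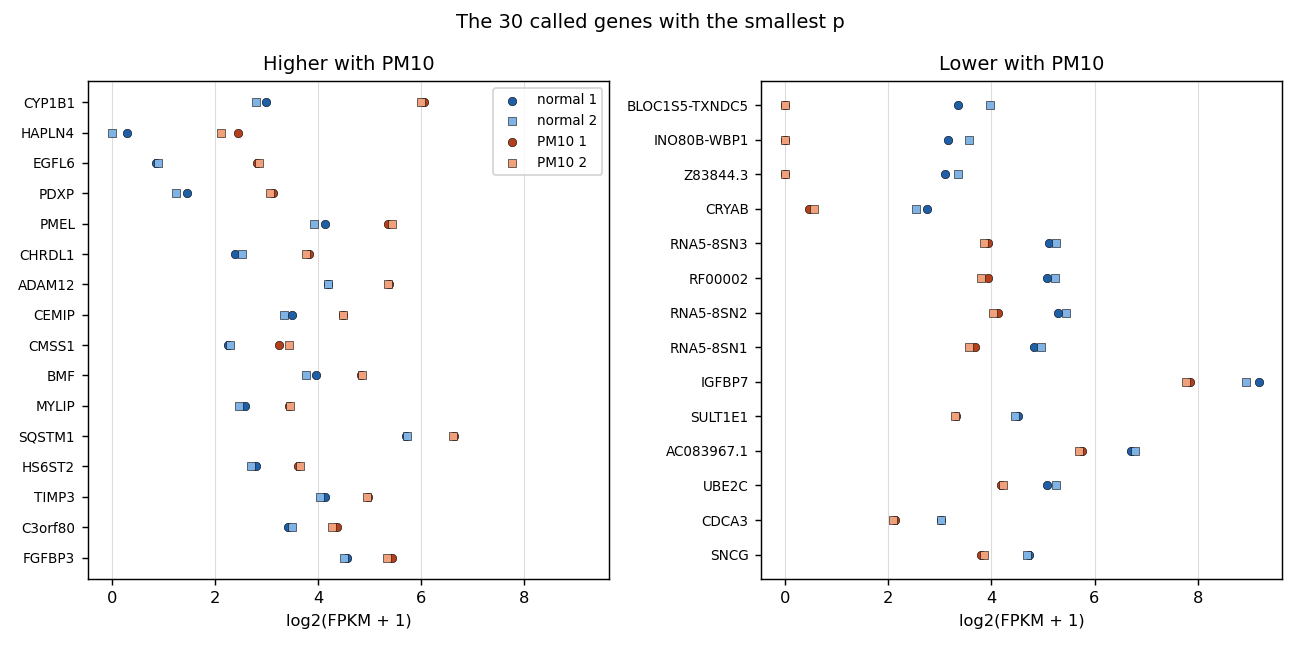
The 30 called genes with the smallest p as log2(FPKM + 1) in each of the 4 libraries (blue normal, orange PM10), 16 higher and 14 lower with PM10. The libraries of a group lie close together for nearly all genes, and the readthrough transcripts at 0 with PM10 are the widest apart.

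Some of the widest differences fell on overlapping gene models, where reads of one gene can be assigned to another. Z83844.3, a model that joins SH3BP1 and PDXP, was at 7.56 and 9.19 FPKM in the normal libraries and listed at 0 in both PM10 libraries. PDXP, a pyridoxal phosphatase whose exons it shares, was at 1.75, 1.37, 7.78 and 7.42 FPKM, and SH3BP1 was at 11.7, 11, 17.1 and 17 FPKM. The call of PDXP (difference 1.75, limma adjusted p = 0.00407) thus stood beside the opposite pattern of the model that contains it, and is uncertain as a change of the gene. INO80B-WBP1 was at 7.92 and 10.8 FPKM in the normal libraries and listed at 0 with PM10, while INO80B was at 18.4, 17.6, 22.4 and 22 FPKM and WBP1 at 48.8, 52.8, 56.7 and 60.9 FPKM. BLOC1S5-TXNDC5 was at 9.17 and 14.7 FPKM and listed at 0 with PM10, with TXNDC5 at 104, 89.3, 80.6 and 80.5 FPKM. BMP6, a bone morphogenetic protein that controls iron through hepcidin, overlaps that model and was at 2.2, 1.89, 0.363 and 0.326 FPKM, so its call (difference -1.18, limma adjusted p = 0.0164) is uncertain too. AC087721.2 was listed at 0 in both normal libraries and at 2.32 and 4.27 FPKM with PM10. NUSAP1, a spindle protein gene it overlaps, was at 16.4, 15.2, 5.91 and 3.89 FPKM. No fold is given for a group listed at 0. Of the 239 called genes 46.9% share exon positions with another gene, beside 53.4% of all tested genes.

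Ribosomal RNA genes on chromosome 21 were lower with PM10. The 5.8S gene RNA5-8SN3 was at 33.7, 37.2, 14.2 and 13.4 FPKM (difference -1.30, limma adjusted p = 0.00407), and RNA5-8SN1, RNA5-8SN2 and RF00002 differed by -1.28, -1.28 and -1.29. FP671120.4, FP671120.5, FP236383.2 and FP236383.3 lie in the same repeats and fell too, with FP671120.4 at 584, 965, 248 and 174 FPKM (difference -1.85, limma adjusted p = 0.0381). Its normal libraries differed by 0.72, and without normal library 2 the adjusted p was 0.0992 (range 0.0121 to 0.0992). These copies are nearly identical, so reads could be placed in any of them, and they count as 1 observation. The libraries were made from poly-A selected RNA. The shares of ribosomal and 7SL RNA given above sum genes typed as ribosomal RNA together with 7SL genes such as RN7SL2. FP671120.4 alone was above that sum in each library, so it is not part of it. For the genes typed as ribosomal RNA the shares are not a separate measure. Between the normal libraries the share went from 0.0422% to 0.0831%, while RNA5-8SN3 went from 33.7 to 37.2 FPKM. The part of ribosomal RNA carried into the libraries was not tested.

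Genes of the extracellular matrix went both ways. Of 30 tested matrix proteins and proteases 6 were called higher and 3 lower, beside 0.839% and 0.920% of all genes, with a median of -0.044. Those called higher were proteases, their inhibitors and tenascin C. TIMP3, an inhibitor of metalloproteases bound to the matrix, was at 16.7, 15.4, 30.4 and 29.9 FPKM and rose by 0.87 ± 0.073 (SE, n = 2 per group, limma adjusted p = 0.0115). MMP14, a membrane-bound metalloprotease, was at 179, 160, 272 and 279 FPKM (adjusted p = 0.0208), MMP9, a gelatinase, was at 5.95, 5.39, 10.3 and 10.3 FPKM (adjusted p = 0.0208), and TNC, a matrix protein of tissue repair, was at 85.1, 83.8, 130 and 138 FPKM (adjusted p = 0.0164). ADAMTS1 and TIMP2, a protease and an inhibitor, rose by 0.69 and 0.40. Those called lower were BGN, LOX and FBN2. BGN, the proteoglycan biglycan, was at 332, 386, 199 and 212 FPKM (adjusted p = 0.0231), LOX, lysyl oxidase, fell by 0.54 and FBN2, fibrillin 2, fell by 0.45. When a library was left out the list held 8 higher and 5 lower calls without normal library 1, 2 and 1 without normal library 2, 1 and 0 without PM10 library 1, and 1 and 1 without PM10 library 2. The median of the list turned positive, to 0.047, without normal library 1.

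Among 29 tested collagens 1 was called higher and 4 were called lower, beside 0.839% and 0.920% of all genes, and 19 had no overlap downward (19.1% of all genes did). COL9A3, a cartilage collagen, was at 16.2, 14.1, 7.61 and 7.18 FPKM and fell by 0.94 ± 0.092 (SE, limma adjusted p = 0.0164), called in each fit that left out a library. COL14A1, a collagen bound to fibrils, was at 11.4, 14.4, 6.97 and 7.02 FPKM. Its normal libraries differed by 0.32 against a group difference of -0.79 (limma adjusted p = 0.0402), and it was called in 1 of the 4 fits that left out a library. COL4A1 and COL4A2, the chains of basement membrane collagen, fell by 0.65 and 0.51, and COL16A1 rose by 0.48. The main fibrillar gene COL1A1 was at 445, 587, 408 and 423 FPKM, so normal library 1 lay close to both PM10 libraries and normal library 2 apart from them. The count of calls lower was 5, 2, 1 and 1 with each library left out in the same order as above. None of 15 smooth muscle and contractile genes was called by limma, and their median was -0.283. At an unadjusted p under 0.05, 1 was higher and 7 lower, beside 2036 and 1178 of all 13588 genes. ACTA2, smooth muscle actin, was at 719, 656, 532 and 537 FPKM (limma adjusted p = 0.0749), and ACTG2, its enteric form, was at 130, 101, 71.1 and 70.6 FPKM (adjusted p = 0.0582). Without normal library 1 this list held 4 calls lower and without normal library 2 it held 2.

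**Figure D5:**
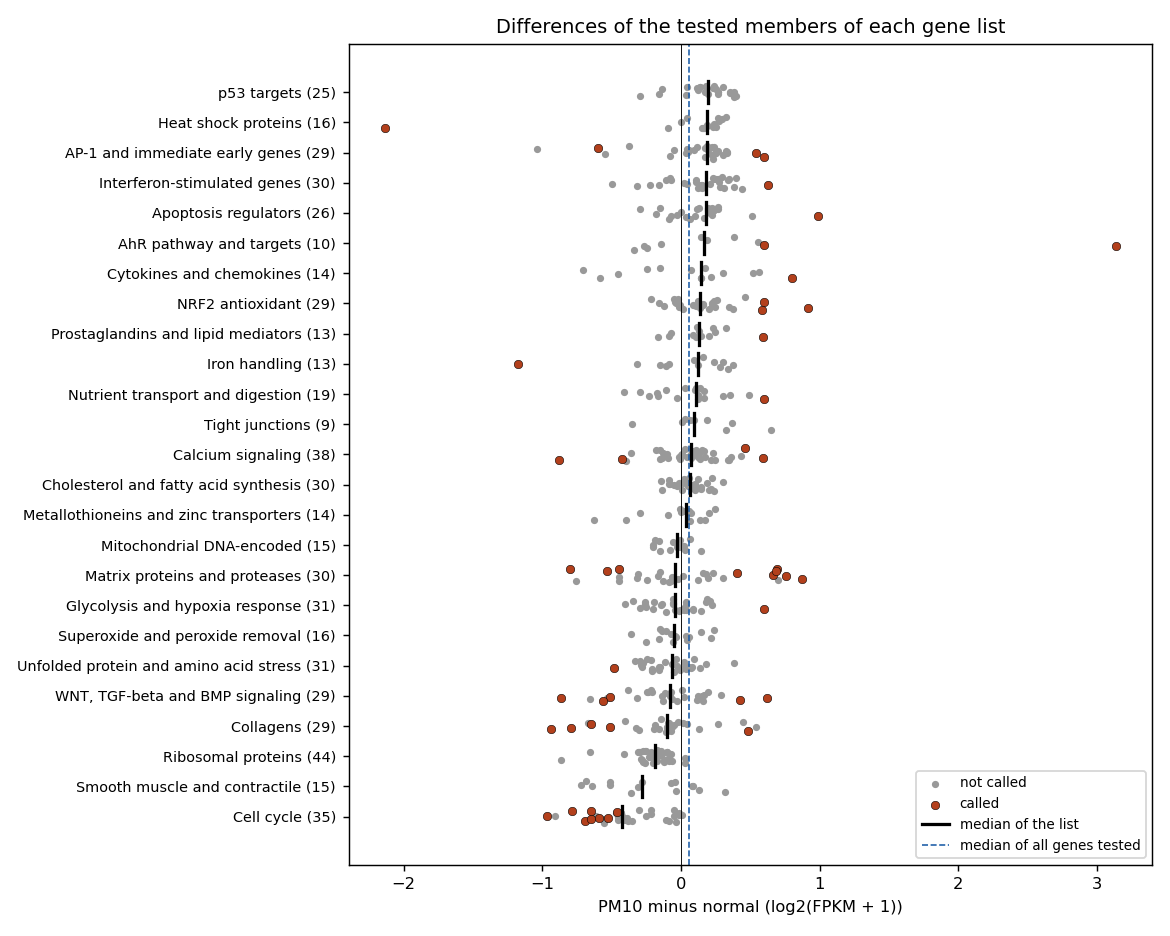
PM10 minus normal on the log2(FPKM + 1) scale for the tested members of each gene list, with the number tested in brackets, called members in red and a bar at the median. Cell cycle genes have the lowest median (-0.424), and the others lie between -0.283 and 0.192, beside 0.062 for all tested genes.

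Calls among genes of inflammation are given beside the 0.839% of all genes called higher and the 0.920% called lower. Of 38 listed cytokines and chemokines 14 were tested. The other 24 stayed under the minimum, and 13 genes, TNF, IL1A and IL1B among them, had a value of 0 in every library. CCL7, a monocyte attractant, was the 1 called member, at 4.46, 3.94, 7.68 and 8.44 FPKM (difference 0.80 ± 0.095 SE, limma adjusted p = 0.0263). Its call remained only in the fit without normal library 1 (adjusted p = 0.0410) among those that left out a library, with 0.0183 to 0.0843 over all alternatives. CXCL8 was listed at 0 in 3 libraries and at 0.213 FPKM in PM10 library 2, and IL6 was at 0.796, 1.11, 0.444 and 0.219 FPKM. Of 30 interferon-stimulated genes WARS, a tryptophan tRNA synthetase, was the 1 called, at 74.3, 77.8, 118 and 118 FPKM (difference 0.63, adjusted p = 0.0183). No overlap upward held for 19 of the 30, beside 38.1% of all genes, with a median of 0.180, beside 0.062. Of 29 AP-1 and immediate early genes JUN and ATF3, which encode factors of the AP-1 and stress response families, rose by 0.54 and 0.60, and DUSP1, a phosphatase of MAP kinases, fell by 0.60. JUN was at 28.7, 26.6, 40.8 and 40.4 FPKM, and ATF3 was at 2.83, 2.51, 4.41 and 4.72 FPKM. Of these 3 genes, JUN alone was called in a fit that left out a library, the one without normal library 1.

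Of 31 tested genes of unfolded protein and amino acid stress, PSAT1, an enzyme of serine synthesis, was the 1 called, at 24.8, 25.8, 17.3 and 18.3 FPKM (difference -0.49, limma adjusted p = 0.0401). For 17 of the 31 the normal libraries differed by at least as much as the groups. For this and the lists that follow, 0.839% of all genes were called higher and 0.920% lower. PSAT1 was called in none of the fits that left out a library. At an unadjusted p under 0.05 the list held 1 gene higher and 9 lower, beside 2036 and 1178 of all 13588 genes. The list had no overlap upward for 4 and downward for 10, beside 38.1% and 19.1% of all genes. Without normal library 1 it held 1 call higher and 3 lower. Metallothioneins and zinc transporters, which respond to metals, had 0 calls by limma among 14 tested, with 1 higher and 1 lower at an unadjusted p under 0.05. MT2A was at 80.3, 98.7, 65.2 and 70.0 FPKM and MT1X at 14.2, 17.6, 18.3 and 16.8 FPKM, and the family shares near-identical sequence, so single members are uncertain. Iron handling genes had 1 call of 13, the uncertain BMP6, which reached the minimum for testing only through its normal libraries. Enzymes of cholesterol and fatty acid synthesis had 0 calls among 30, with 5 higher and 0 lower at an unadjusted p under 0.05. Glycolysis and hypoxia genes had 1 call of 31, SLC2A3, a glucose transporter at 19.0, 17.2, 26.4 and 29.5 FPKM (difference 0.60, limma adjusted p = 0.0401), which was also the 1 call of 19 nutrient transport and digestion genes. It was called in none of the fits that left out a library.

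Of 29 tested WNT, TGF-beta and BMP genes 2 were called higher and 3 lower, beside 0.839% and 0.920% of all genes. DKK1, a secreted WNT antagonist, was at 76.1, 64.2, 38.7 and 37.4 FPKM and fell by 0.86 ± 0.094 (SE, limma adjusted p = 0.0208), called in each fit that left out a library. DKK3 and ID3, a relative of DKK1 and a target of BMP signaling, fell by 0.56 and 0.51. DKK3 shares exon positions with USP47, which went the other way at 10.9, 9.5, 15.9 and 16.1 FPKM, so its call is uncertain. RSPO3, a secreted amplifier of WNT signaling, was at 8.13, 7.48, 13 and 12.1 FPKM and rose by 0.62, and SFRP2, a secreted WNT antagonist, was at 276, 282, 371 and 379 FPKM and rose by 0.42. SFRP2 was not called after median centring. EMCN, the one called marker of endothelium, was at 28.9, 23.8, 16.6 and 16.2 FPKM (difference -0.65, limma adjusted p = 0.0447).

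Of 38 tested calcium signaling genes 2 were called higher and 2 lower, again beside 0.839% and 0.920%. PTGER3, the prostaglandin E2 receptor EP3, was at 5.29, 5.99, 9.07 and 8.90 FPKM and rose by 0.59 ± 0.087 (SE, limma adjusted p = 0.0401). AGTR1, an angiotensin II receptor, was at 6.11, 6.06, 8.83 and 8.67 FPKM and rose by 0.46. OXTR, the oxytocin receptor, was at 3.91, 3.25, 1.42 and 1.55 FPKM and fell by 0.88, and EDNRA, an endothelin receptor, was at 50.8, 47.3, 36.2 and 36.3 FPKM and fell by 0.42. All 4 had no overlap of the groups, and none was called in a fit that left out a library. PTGER3 and AGTR1 were also not called after median centring or quantile normalization, and EDNRA was not called after rescaling without mitochondrial genes. PTGER3 was the 1 call among 13 tested genes of prostaglandins and lipid mediators.

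Some genes had also been followed by quantitative PCR, of which those of calcium signaling and protein absorption were picked from RNA-seq results of the same series, so their values are not independent evidence. Of 20 such genes 12 were tested and 2 were called, PTGER3 higher and COL14A1 lower, beside 0.839% and 0.920% of all genes. Of the 8 not tested, 7 were listed at 0 in all 4 libraries. Among these were CDX2, VIL1, the goblet cell gene MUC2, the Paneth cell gene LYZ and SLC15A1, a transporter of small peptides. No overlap held upward for 4 and downward for 4 of the 12, beside 38.1% and 19.1% of all genes. PDGFD, a platelet-derived growth factor, was at 18.6, 16.3, 12.9 and 13.1 FPKM (limma adjusted p = 0.0868). BAX, which promotes apoptosis, was at 49.8, 50.5, 56.9 and 58.1 FPKM and was not called. The calcium genes CACNA1G, PLCD4 and SLC8A2 differed by -0.18, 0.17 and 0.029, and none was called. BCL2, TJP1 and COL13A1 differed by 0.22, 0.066 and -0.18, also not called. The stem cell and progenitor genes LGR5 and SOX9 were at 2.63, 2.01, 2.33 and 2.31 FPKM and at 15, 13.5, 14.1 and 13.6 FPKM, with both PM10 libraries of LGR5 between the normal ones. The signs of SLC8A2, LGR5 and SOX9 turned under some alternatives. Tight junction genes had 0 calls by limma among 9 tested. At an unadjusted p under 0.05, 2 were higher and 1 lower, beside 2036 and 1178 of all 13588 genes. OCLN was under the minimum at 0.181, 0.264, 0 and 0.228 FPKM.

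For most genes of mitochondrial DNA the groups overlapped, and 2 of 15 had no overlap downward. The 15 tested genes of mitochondrial DNA had 0 calls by limma and none at an unadjusted p under 0.05, and in all 15 the normal libraries differed by at least as much as the groups. MT-CO3, a subunit of cytochrome c oxidase, was at 8342 and 13220 FPKM in the normal libraries and at 9451 and 9408 FPKM with PM10. The PM10 libraries nearly coincided between the normal ones. Without normal library 1 limma called 14 of the 15 lower with PM10, and without normal library 2 it called 8 higher, so the direction was set by which normal library served as the control. Ribosomal protein genes had 0 calls among 44. At an unadjusted p under 0.05, 22 were lower and 0 higher, beside 1178 and 2036 of all 13588 genes. No overlap downward held for 37 (19.1% of all genes), and the median was -0.185, or -0.042 after quantile normalization. RPL23 was at 330, 596, 277 and 286 FPKM, with a normal difference of 0.85 against a group difference of -0.66.

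Single genes past 2-fold showed the same limit. FOSB, an immediate early gene, was at 3.32, 9.10, 2.33 and 2.12 FPKM, a difference of -1.04 with a normal difference of 1.22 (limma adjusted p = 0.172). RN7SL2, a gene of the signal recognition particle RNA, was at 3.65, 62.4, 2.73 and 2.13 FPKM, so 1 normal library lay near the PM10 libraries for FOSB and RN7SL2. SNX15, a sorting nexin, was at 1.08, 6.25, 8.71 and 10.3 FPKM, while the model ARL2-SNX15 that it overlaps was at 9.84 FPKM in normal library 1 and listed at 0 in the other 3, so its value is uncertain. MYL9, a myosin light chain that was not past 2-fold (difference -0.51), was at 221, 395, 199 and 214 FPKM. For such genes a difference with PM10 was not detectable at the spread of these libraries, which does not show that it was absent.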

How the data were processed

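Expression was measured by RNA-seq in 8 libraries of H9-derived cells, of which the 4 without cytokines were used. RNA with an integrity number above 7.5 was selected for poly-A tails, and unstranded libraries were read in pairs of 100 bases. The authors trimmed reads with Cutadapt 3.7 and Sickle 1.33 (Phred 20, at least 50 bases), aligned them with HISAT2 2.2.1 to GRCh38 and estimated FPKM with StringTie 2.2.0. The annotation release is not given in the sources used here. The FPKM values the authors deposited hold no read counts, so no count model was used and depth is known only from the lowest value above 0, which was 0.164 to 0.217 FPKM per library. Libraries held 17806 to 18926 genes above 0.

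Values were compared as log2(FPKM + 1), with a pseudocount of 1 and no scaling between libraries, by limma 3.58.1 run in R 4.3.3, with its variance trend switched on, and Benjamini-Hochberg adjustment over 13588 genes. Of the identifiers, 99.5% matched GENCODE release 44, which gave positions and exon overlaps, also on GRCh38. Some current symbols were absent from the files, so WARS1 is given as WARS. The fit was tested on simulated data. The members and lists were chosen with earlier results of these data known. Genes were named as the 30 called genes with the smallest p, up to 10 per direction past 2-fold without overlap and with a mean of at least 1 FPKM, up to 4 members per list with the largest difference, and the genes measured by PCR. Some genes are not reported here and were left out of the lists and named genes, but not of the fit. Called list members, the partners of overlapping genes, and AHR, ARNT, CYP1A1, AHRR, MKI67, MCM2, PCNA, CDKN1A, NUSAP1, TXNRD1, GCLM, GCLC, CXCL8, IL6, MT1X, COL1A1 and OCLN were added for their role after values were seen. Alternatives changed the pseudocount, filter, scaling, trend, replicate block and libraries.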

Additional observations from a re-analysis of the deposited data

How the results depend on the processing

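Of the 3 counts, that of calls by limma moved most. It was 239 as reported, 55 without the filter on low values, 129 without the trend of the variance and 401 with the replicate block, and leaving out a library gave 77 to 397. The genes past 2-fold numbered 76 as reported, 195 with a pseudocount of 0.1, 45 with at least 1 FPKM in all 4 libraries, and 82 to 127 when a library was left out. The genes without overlap numbered 7246 to 9862 under the alternatives that kept all 4 libraries, against 7770 as reported. With a library left out, 1 library stands against 2, where no overlap is easier to reach, so those counts are not comparable. The replicate numbers were not shown to pair the libraries. Deviations from the group means of libraries with the same number had a correlation of 0.0859 over genes, with only 2 pairs, and the block kept all 239 calls. Of 76 called genes followed singly, none changed sign under any alternative, and 39 were no longer called without the filter, 29 without the trend, 5 after median centring and 6 after quantile normalization. Genes under 1 FPKM in a library, EGFL6 and CRYAB among them, could not be fitted with at least 1 FPKM in all 4 libraries. Among genes not called, SLC8A2 turned to -0.036 after median centring and -0.039 after quantile normalization, LGR5 to -0.060 and -0.011, and SOX9 to 0.0012 after rescaling without mitochondrial genes. With a library left out SLC8A2 ran from -0.062 to 0.121, LGR5 from -0.129 to 0.141 and SOX9 from -0.105 to 0.032. The causes were not tested. Precision is limited by 2 libraries per group and by the lack of read counts, and no difference under 0.384 on the log2 scale was called as reported.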

Other observations

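A list of 58 lysosome and autophagy genes was written after the values were seen, so its counts are a description only. Of 57 tested, 8 were called higher and none lower, beside 0.839% and 0.920% of all genes. No overlap held upward for 42 and downward for 3, beside 38.1% and 19.1% of all genes, and the median difference was 0.186, beside 0.062 for all tested genes. Besides SQSTM1 the called members were GPNMB, a lysosomal glycoprotein, at 0.570 and 0.601 FPKM in the normal libraries and 2.16 and 2.06 FPKM with PM10, and LGALS3, a lectin that marks damaged endosomes, at 15.3, 14, 26.5 and 27.5 FPKM. GPNMB reached the minimum for testing only through its PM10 libraries. MCOLN3, a lysosomal cation channel, was at 6.77, 5.69, 10.4 and 10.7 FPKM, and ATP6V1B2, a subunit of the vacuolar proton pump, at 29.7, 27.3, 44.2 and 42.8 FPKM. VPS18, CLCN7 and GABARAPL1, which act in vesicle tethering, lysosomal chloride transport and autophagosome formation, rose by 0.47, 0.47 and 0.43. LGALS3 and SQSTM1 were called in each fit that left out a library, and VPS18 and CLCN7 in none.

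HOXC5, a homeobox gene chosen after its values were seen, was listed at 0 in both normal libraries and was at 1.26 and 1.22 FPKM with PM10. It reached the minimum for testing only through the PM10 libraries, so these values are a description only.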
